A study of Mus musculus with 3 samples.

Results

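Day 20 was compared with day 8 in 3T3-L1 adipocytes, the interval in which fat cells that have already formed go on filling with lipid. Every gene with a named probe on the array was considered, and a difference counts as measured where both arrays show its probe well above background. This held for 12321 of 20144 named genes. The study profiled 3T3-L1, a long-established line of mouse preadipocytes derived from embryo fibroblasts, at 2, 8 and 20 days after adipogenic differentiation was started, to follow gene expression during adipocyte hypertrophy. Total RNA of each day was labelled with cyanine-3 and hybridised to 1 Agilent 1-colour array. There was 1 array per day and no replicate, so no p-value is given, and each difference compares 1 culture with another. The cells of both days are of the same line, and no treatment other than the adipogenic induction is named for either. The labels do not give the induction cocktail or the medium.

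Adipocyte hypertrophy is the enlargement of existing fat cells, as opposed to the formation of new ones. An enlarging fat cell has to synthesise or take up fatty acids, assemble them into triglyceride and coat the growing droplet, while the collagen and microfibril network around it is remodelled. In adipose tissue, large fat cells are known for altered adipokine secretion, inflammatory signalling and matrix deposition. A culture of 3T3-L1 cells also holds fibroblast-like cells that did not differentiate.

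Values are log2 of the processed intensity minus the 75th percentile of each array's non-control probes, and a difference is day 20 minus day 8. The 75th percentile lay at an intensity of 636 on day 8 and 927 on day 20, and 56.9% and 55.3% of non-control spots were well above background. The error beside a difference is a technical SD read from the scatter of probes that each array carries in 10 copies, with a median of 0.078 over genes. It covers spots of an array and not the spread between cultures.

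By a rule of 2-fold or more in size, written below as past 2-fold, 441 measured genes (3.58%) had the higher level on day 20 and 214 (1.74%) the lower, or 5.32% in either direction. Most genes differed little: 76.8% lay within 0.5 of 0, and the median was -0.05. Genes of the extracellular matrix, of its proteases and inhibitors, of the contractile cytoskeleton and of growth factor signalling held many of the higher genes. Apolipoproteins and lipid transporters had 5 of 24 measured members higher (20.8%). Lists of fatty acid synthesis, fatty acid uptake, lipid droplet proteins and adipogenic transcription factors had 0. Triglyceride assembly had 1 of 24 and lipolysis control 2 of 26. Lists of this size are too small to set counts of 0, 1 or 2 apart from the 3.58% of all genes. The 5 apolipoprotein and transporter genes include Apol9a and Apol9b, which are too alike to be told apart with certainty. No list count was tested, because the lists were chosen with earlier results of these data known. The spike-in RNA added to each sample gave another scale. Its probes were lower on day 20 by 0.12 (SD 0.033 over 8 probes) while the 75th percentile was higher by 0.54, so scaling on them adds 0.66 to every difference and moves the median of all genes to 0.62. On that scale 2085 genes (16.9%) passed upward and 21 (0.17%) downward, and the share of higher genes among those past 2-fold went from 67.3% to 99.0%. Any difference below 0 by less than 0.66 turns above 0 on the spike-in scale. Differences in the following are relative to the 75th percentile unless that scale is named.

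**Figure D1:**
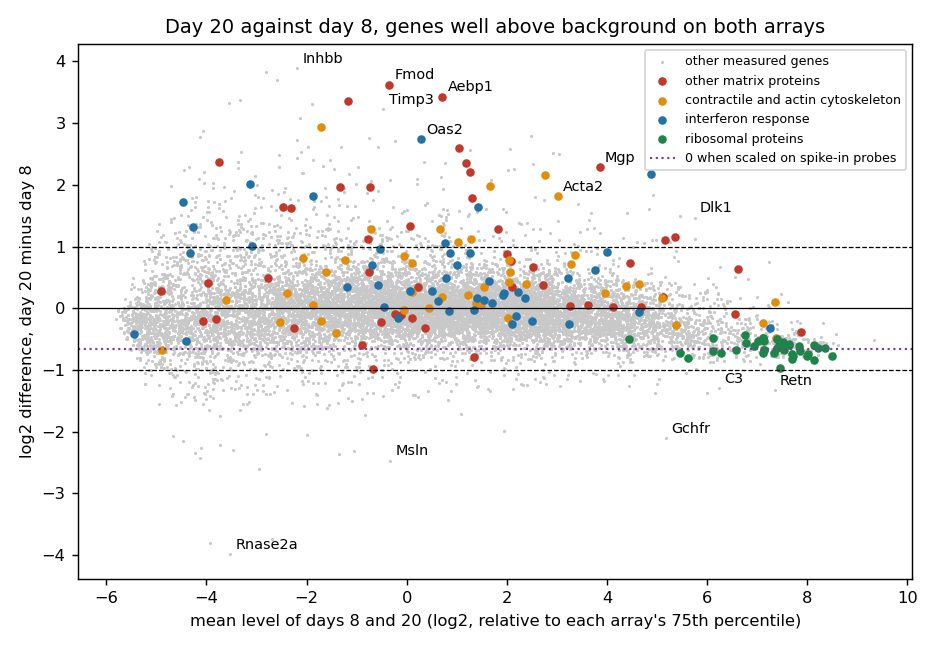
Each point is a gene well above background on both arrays. The horizontal axis is its mean level on days 8 and 20 (log2, relative to the 75th percentile) and the vertical axis the log2 difference, day 20 minus day 8. Dashed lines mark 2-fold, the dotted line marks where 0 would lie when scaled on spike-in probes, and 4 gene lists are coloured. Matrix genes spread up to 3.62, and the ribosomal protein genes form a tight group between -0.97 and -0.43.

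The 2-fold genes were more often dim than bright. With measured genes cut into 4 bins of equal size by signal, the dimmest bin held 199 higher and 112 lower genes past 2-fold, with a median technical SD of 0.18. In the brightest bin the counts were 39 and 28, with a median SD of 0.074. For 102 genes past 2-fold a further probe was measured, and in 95 (93.1%) it fell on the same side of 0. Across 10 alternative settings of scaling, background, filter and probe choice, 175 of the higher genes and 8 of the lower genes stayed past 2-fold in every one. These 2 counts are not on equal terms. Scaling on spike-in probes or on the median of measured genes raises every difference, so only lower genes can be lost there. The series table values and the setting that keeps dim probes leave the calls of measured genes as they are. The filter at the lower quartile of signal drops each gene below it, whatever its difference. At most 242 of the higher and 102 of the lower genes could therefore stay past 2-fold in every setting. The size of dim differences rests on the background correction: with the normexp method, which subtracts a modelled background and adds an offset of 50, 206 genes were higher and 100 lower past 2-fold. Its values are given beside many of the named genes past 2-fold whose call or size rests on this choice. Dim differences under 2-fold rest on it too, and most are printed without it.

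The identity of the cells was checked on adipocyte markers. All 12 were measured on both days, and their levels summed to 2070 on day 8 and 1350 on day 20 in units of the array's 75th percentile. Their median difference was -0.37, with Lep higher and Retn lower past 2-fold. Lep was dim on both days, and with the normexp background it differed by -0.04. On the spike-in scale that median was 0.29, so its direction depends on the scaling. In RNA from a whole culture, fewer cells of a type and less RNA per cell cannot be told apart.

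The matrix proteins other than collagens made up one of the lists with most higher members. Of 48 measured members 18 (37.5%) were higher past 2-fold and 0 lower, with a median of 0.54. Fmod, encoding fibromodulin, a small leucine-rich proteoglycan that binds collagen fibrils, was at -2.16 on day 8 and 1.46 on day 20. That is 12.3-fold higher (log2 difference 3.62, technical SD 0.09), and on day 2 it was not well above background. Aebp1, encoding the collagen-binding protein ACLP, went from -4.08 on day 2 to -1.003 on day 8 and 2.43 on day 20, a difference of 3.43 (SD 0.08) between the last days.

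Microfibril genes were among the highest of the list. Mfap4, a microfibril-associated glycoprotein, was at -2.85 on day 8 and 0.51 on day 20 (10.3-fold higher). Mfap5 was at -0.25 and 2.34 (6.01-fold), while Mfap2 differed by 0.28. The fibulins, which link microfibrils and basement membranes, differed in size: Fbln1 by 2.37, Fbln2 by 1.16 and Fbln5 by 0.77. Fbn1, the fibrillin that forms the microfibril core, differed by 1.97. Each of these 7 genes had the higher level on day 20, and 5 of them passed 2-fold. With normexp Fbln1 differed by 0.69, under 2-fold, and Mfap4 by 2.61.

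Mgp, matrix Gla protein, an inhibitor of calcification, was bright on both days, at 2.71 on day 8 and 4.996 on day 20 (4.88-fold higher). Fn1, fibronectin, was at 4.62 and 5.71 (2.14-fold), and Spp1, osteopontin, at 0.02 and 2.37 (5.13-fold). The thrombospondins, matricellular proteins that bind growth factors and collagen, differed by 2.20 for Thbs1, 1.33 for Thbs2 and 0.59 for Thbs3. Of the other small leucine-rich proteoglycans, Ogn differed by 1.78, Dcn and Bgn by 0.74 and 0.67, Lum by -0.22 and Aspn by -0.79. Basement membrane genes were mixed: the laminin chain Lama5 differed by 1.62 (0.84 with normexp), Lamc1, Lama4, Lamb1 and the nidogen Nid1 by 0.02 to 0.05, and Nid2 by -0.60.

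The collagen chains did not follow as a group. Of 23 measured chains 3 were higher past 2-fold and 2 lower, with a median of 0.15. Col8a1, a short-chain collagen of vessels and fibrous tissue, was at -3.69 on day 8 and -1.40 on day 20 (4.88-fold higher), and Col11a1 and Col16a1 differed by 1.45 and 1.38. The chains of the main fibrils were under 2-fold, with Col1a2 at 0.75, Col1a1 at 0.66, Col5a1 at 0.56 and Col3a1 at 0.18. The basement membrane chains Col4a1 and Col4a2 differed by 0.07 and 0.15, and Col6a1 and Col6a2, of the microfilament collagen abundant around fat cells, by -0.35 and -0.47. These last 2 turn to above 0 on the spike-in scale. Col10a1 (-1.56) and Col7a1 (-1.03) were the chains past 2-fold lower. With normexp Col8a1 differed by 1.42, and Col10a1 (-0.71) and Col7a1 (-0.88) were under 2-fold.

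Enzymes that mature collagen had 5 of 24 measured members higher past 2-fold and 0 lower. The lysyl oxidases, which cross-link collagen and elastin, were not alike: Loxl3 was at -2.61 on day 8 and 0.00 on day 20 (6.12-fold higher), Lox differed by 1.65 and Loxl4 by 1.25, Loxl1 by 0.52 and Loxl2 by -0.71. The second probe of Lox differed by 1.78, and Loxl4 came to 0.095 with normexp. The procollagen N-proteinases Adamts2 and Adamts14 differed by 1.61 and 1.01, the latter 0.59 with normexp. The lysyl hydroxylases Plod1, Plod2 and Plod3, which act inside the endoplasmic reticulum, differed by 0.07 to 0.21, and the collagen chaperone Serpinh1 by 0.11.

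Matrix proteases and their inhibitors had 14 of 40 measured members higher past 2-fold (35.0%) and 0 lower, with a median of 0.66. All 4 tissue inhibitors of metalloproteinases were higher past 2-fold. Timp1 was at 2.23 on day 2, 1.02 on day 8 and 3.28 on day 20 (4.78-fold above day 8), and Timp2 was at 2.90 and 4.45 on the last days (2.92-fold, with its other probe at 1.70). Timp3 differed by 3.22 and Timp4 by 1.13. Reck, a membrane-anchored inhibitor, differed by 1.21. With normexp Timp4 (0.865) and Reck (0.075) were under 2-fold.

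The list also holds the proteases, which differed in both directions. Mmp13, a collagenase, was at -3.18 on day 8 and -0.99 on day 20 (4.55-fold higher), and Plat, the tissue plasminogen activator, at -4.40 and -2.50 (3.74-fold). Mmp2 and Mmp3, a gelatinase and a stromelysin, each differed by 1.14, and Mmp14, the membrane-bound activator of Mmp2, by 0.93. With normexp Mmp13 differed by 1.54, and Plat (0.58) and Mmp3 (0.097) were under 2-fold. Other proteases were lower than 0: Adamts12 was at -0.62, Adam19 at -0.56 and Adam8 at -0.55, values that turn above 0 on the spike-in scale. Another 11 listed genes, Mmp9 and Mmp12 among them, were well above background on neither day.

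**Figure D2:**
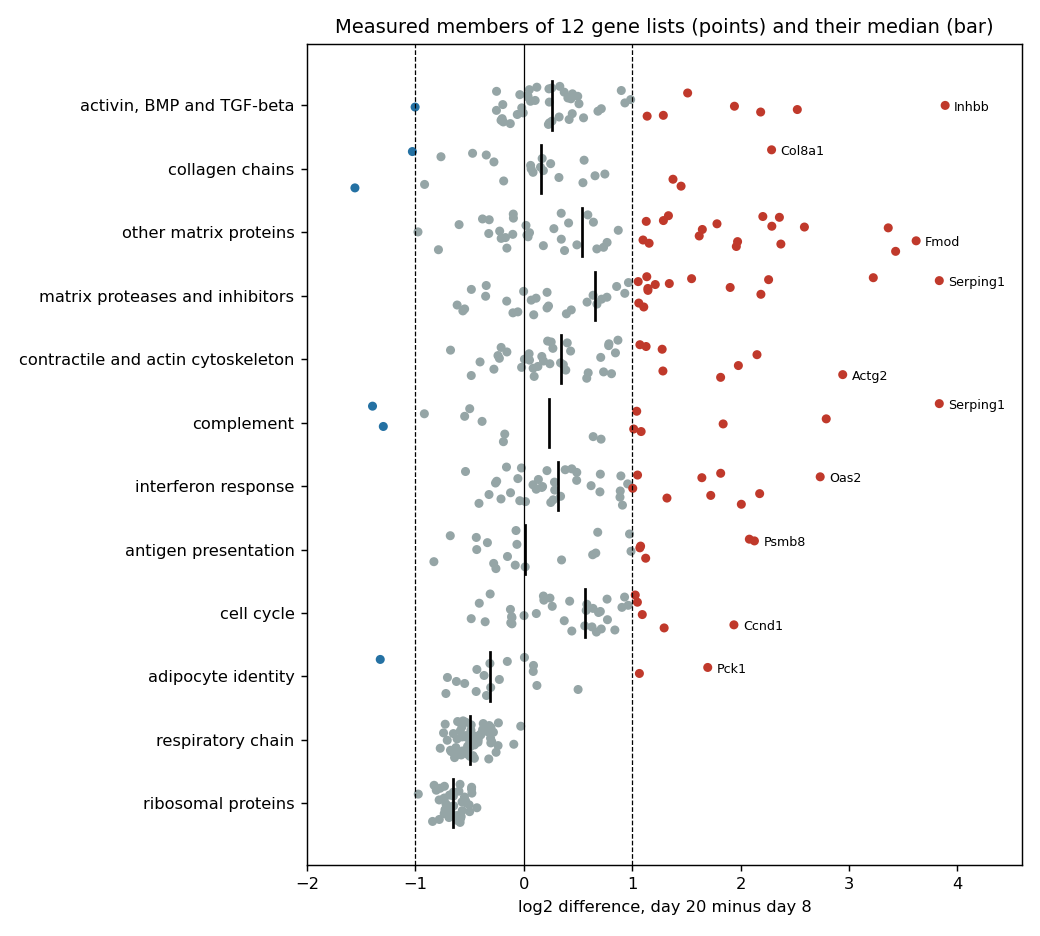
Points are the measured members of 12 gene lists, placed along the log2 difference, day 20 minus day 8. Red points are higher past 2-fold, blue points lower past 2-fold, and the black bar is the median of the list. Matrix, protease, contractile, complement and interferon lists have long tails to the right, up to 3.83 for Serping1, while all respiratory chain and ribosomal protein genes lie below 0 on this scale.

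Genes of the contractile apparatus and actin cytoskeleton had 8 of 43 measured members higher past 2-fold (18.6%) and 0 lower, with a median of 0.34. The smooth-muscle actin Actg2 was at -3.17 on day 8 and -0.23 on day 20 (7.68-fold higher, with a log2 difference of 2.94 that was 1.98 with normexp). Myl9, the regulatory myosin light chain of smooth muscle and myofibroblasts, was at -4.35 on day 2, 1.68 on day 8 and 3.83 on day 20 (4.44-fold above day 8). Acta2, the actin of myofibroblasts, was at 2.11 and 3.93 on the last days. Fhl2, a cofactor of serum response factor, differed by 1.98, the calponin Cnn2 by 1.28, smoothelin (Smtn) by 1.28, transgelin (Tagln) by 1.13 and the tropomyosin Tpm1 by 1.07. All but Tpm1 stayed past 2-fold in every setting.

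Other members were under 2-fold, up to Zyx, a focal adhesion protein, at 0.87, Palld at 0.84 and the actinin Actn1 at 0.81, and down to Ppp1r12b at -0.68. The nonmuscle actins Actb and Actg1 differed by 0.10 and -0.49, the myosin heavy chain Myh10 by 0.01, and desmin (Des) and Myh11, both of differentiated smooth muscle, by -0.02 and -0.23. The transcription factor Srf and its actin-sensing cofactors Mrtfa and Mrtfb differed by 0.27, 0.18 and 0.05. Cnn1, a late smooth-muscle marker, was well above background on neither day. A set of 8 myofibroblast and smooth-muscle markers, all of them genes named above, had 5 of 7 measured members higher past 2-fold. These 5 are among the 8 higher genes already counted. The summed level of the markers was 10.9 on day 8 and 36.0 on day 20.

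Promoter sequences show where these genes carry the CArG box, the element CC(A/T)6GG that serum response factor binds. The 250 bases before the start of transcription were searched in RefSeq promoters of build GRCm38.p6, where the box reads the same on both strands. It was found in 10 of 37 measured list members with a sequence (27.0%) against 439 of 27025 genes in the table (1.62%). It stood in 3 of 6 members past 2-fold and in 7 of 31 members under 2-fold (22.6%). The stretches of 3 higher genes and of Vcl, encoding vinculin, which differed by 0.22, are shown with the box in capitals, 5′ to 3′ on the strand of the gene.
Myl9, chr2:156775258-156775357, plus strand: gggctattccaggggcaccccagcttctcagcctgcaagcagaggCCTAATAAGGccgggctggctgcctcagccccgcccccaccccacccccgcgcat
Fhl2, chr1:43196803-43196902, minus strand: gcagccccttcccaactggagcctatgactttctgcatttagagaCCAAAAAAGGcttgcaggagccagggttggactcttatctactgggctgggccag
Cnn2, chr10:79988499-79988598, plus strand: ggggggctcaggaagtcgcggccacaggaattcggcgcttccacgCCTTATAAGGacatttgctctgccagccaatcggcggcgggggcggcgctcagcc
Vcl, chr14:20929148-20929247, plus strand: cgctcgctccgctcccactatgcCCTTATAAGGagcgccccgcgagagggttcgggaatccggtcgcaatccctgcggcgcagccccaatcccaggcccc
Each stretch lies upstream of the annotated start, and its box is a match of letters, not a measured binding site. Cnn2, at 2.43-fold higher, and Vcl, under 2-fold, carry the same 10 letters. The stretches shown were chosen after the values of their genes were seen.

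The activin, BMP and TGF-beta list held the largest measured difference upward. Inhbb, the beta B subunit of activin B, showed no signal well above background on day 2 and lay at -4.14 on day 8 and -0.25 on day 20, or 14.8-fold higher (3.89, SD 0.19, and 2.48 with normexp). Inhba, the beta A subunit, was at 1.90, -2.60 and -0.66 on days 2, 8 and 20, so its day 20 level was 3.84-fold above day 8 and below day 2. Inha, the alpha subunit that turns activins into inhibins, differed by -1.003 (-0.85 with normexp). Among 47 measured members 7 (14.9%) were higher past 2-fold and 1 lower.

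Antagonists and targets of the pathway differed among themselves. Grem1, gremlin, a secreted BMP antagonist, was at -3.17 and -0.98 (4.55-fold higher). Fst, follistatin, which binds activin, differed by 1.14, the related Fstl1 by 1.29 and Fstl3 by -0.06. Smad7, the inhibitory Smad that TGF-beta induces, differed by 1.51 and Id2, a target of BMP signalling, by 2.52, but Id3 differed by 0.71, Id4 by -0.02 and Id1 by -0.25. With normexp Grem1 and Id2 differed by 1.44 and 1.63, and Smad7 was under 2-fold at 0.71. The ligands Tgfb1, Tgfb2 and Tgfb3 differed by 0.37, -0.25 and 0.90. The receptors and signal-carrying Smads were close to 0: Tgfbr1 and Tgfbr2 at 0.23 and 0.26, Smad2 and Smad4 each at 0.04, and Smad3 at 0.50.

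Growth factors and their receptors had 13 of 44 measured members higher past 2-fold (29.5%) and 0 lower, with a median of 0.37. Pdgfb, a platelet-derived growth factor chain, was at -5.51 on day 8 and -2.64 on day 20 (7.30-fold higher, SD of the difference 0.31). Ccn2, connective tissue growth factor, was at -5.53 and -2.75 (6.87-fold). Both were near the dimmest signals on day 8 and not well above background on day 2, and with normexp they differed by 0.91 and 0.99, under 2-fold. Fgf1 was at -3.41 and -0.98 (5.41-fold, a log2 difference of 2.44 that was 1.68 with normexp), and Fgf7, a fibroblast factor that acts on epithelia, differed by 1.48.

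Members of the CCN family, matricellular proteins named after their founders, were higher together: Ccn1 by 1.66, Ccn4 by 2.06 (its other probe by 1.95) and Ccn5 by 1.57. Ccn3 was well above background on neither day. Of the insulin-like growth factor system, the binding protein Igfbp3 differed by 1.76, Igfbp6 by 0.99 and Igfbp4 by 0.36, Igf2 by 0.96 and Igf1 by 0.14. The receptors Pdgfra and Pdgfrb differed by 0.66 and 0.83, Fgfr1 by -0.06 and Egfr by -0.03.

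Signals known to hold back adipogenesis had 7 of 14 measured members higher past 2-fold and 0 lower, with a median of 0.75. A further 10 listed genes were well above background on neither day. Sfrp2, a secreted Wnt modulator, was at -2.11 on day 8 and 0.18 on day 20 (4.89-fold higher), and the Wnt ligands Wnt6 and Wnt5a differed by 1.64 and 1.15. Notch3 differed by 1.19 and Notch1 by -0.54. Dlk1, the preadipocyte surface protein, was at 5.47 on day 2, 5.02 on day 8 and 6.49 on day 20, so its highest level of the course was on day 20. With dim probes kept, the list median came to -0.02. With normexp Wnt6 (0.22), Notch3 (0.69) and Wnt5a (0.945) were under 2-fold.

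Markers of preadipocytes and fibroblasts had 4 of 12 measured members higher past 2-fold, 1 lower and a median of 0.78. Their levels summed to 184 on day 8 and 333 on day 20. Ly6a, the stem cell antigen Sca-1, was at 1.78, 0.77 and 3.35 on days 2, 8 and 20 (5.98-fold above day 8), and Thy1 was at 2.34, 1.66 and 3.47 (3.51-fold). S100a4 was under 2-fold at 0.92, and Cd34 differed by -1.17 (-0.69 with normexp). Dpp4 was well above background on neither day, and Pi16 passed background only on day 20, at least 3.52-fold higher. Most of these markers moved with the matrix and contractile genes above. Among the markers, Fn1, Col1a1, Lum and Dcn are also named with the matrix and collagen genes, so the sets share members. The part of the markers in those differences was not tested.

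**Figure D3:**
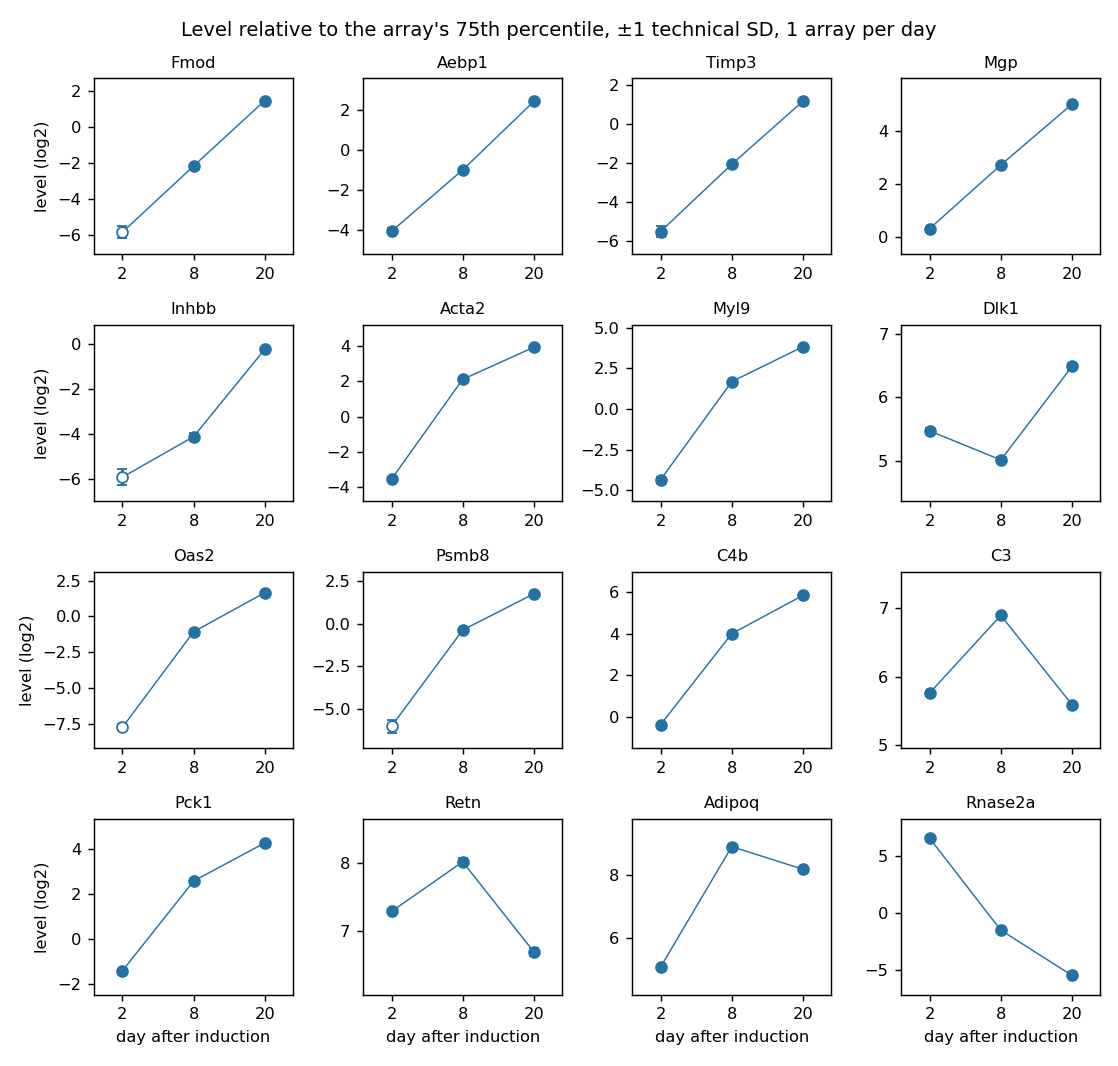
Level of 16 genes on days 2, 8 and 20 (log2, relative to the 75th percentile of the array, 1 array per day), with bars of ±1 technical SD. Open points were not well above background, days are spaced evenly and each panel has its own vertical scale. Fmod, Aebp1, Mgp, Myl9, Oas2 and C4b climb from day to day, Dlk1 and C3 turn between day 8 and day 20, and Rnase2a falls from 6.58 on day 2 to -5.51 on day 20.

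Cell adhesion genes had 8 of 30 measured members higher past 2-fold and 1, Cd34, lower, with a median of 0.47. Itga11, the collagen-binding integrin of fibroblasts, came well above background after day 2, to -0.47 and 1.19 on days 8 and 20 (3.17-fold). Ncam1 differed by 1.52, Cdh11, the cadherin of mesenchymal cells, by 1.32, and Vcam1 by 1.17. The integrin chains Itgb1 and Itga5, which make the fibronectin receptor, differed by 0.34 and 0.24. Itga1 differed by 0.70 with another probe at -0.15, so its direction depends on the probe.

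Complement genes differed in both directions. Of 16 measured members 6 were higher past 2-fold and 2 lower, with 13 listed genes well above background on neither day. Serping1, the C1 inhibitor, showed no signal well above background on day 2 and lay at -4.73 and -0.90 on days 8 and 20 (14.2-fold higher, a difference of 3.83 that was 2.05 with normexp, with its other probe at 3.78). Cfb, factor B of the alternative pathway, was at 1.08 and 3.87 (6.91-fold), and C4b was at -0.37, 3.996 and 5.83 over the 3 days (3.58-fold above day 8). C3, the central component, was instead at 5.76, 6.89 and 5.59, 2.46-fold lower on day 20 than on day 8, with its other probe at -1.24.

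Other members were smaller in difference. C1s1 and C1s2 differed by 1.08 and 1.01 and C1ra by 0.71, with C1s1 (0.99) and C1s2 (0.94) just under 2-fold with normexp, although their near-identical sequences may share a probe's signal. Factor D (Cfd), a serine protease that fat cells secrete under the name adipsin, differed by -0.55 and properdin (Cfp) by -0.92. Clu, clusterin, which inhibits the terminal complex, was at 2.82 and 3.86 (2.06-fold higher). On the spike-in scale C3 stayed below 0 at -0.63, and Cfd came to above 0.

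Interferon-response genes had 9 of 44 measured members higher past 2-fold (20.5%) and 0 lower, with a median of 0.31. Oas2, an oligoadenylate synthetase that senses double-stranded RNA, was at -1.08 on day 8 and 1.65 on day 20 (6.65-fold higher). Ifi27l2a was at 3.78 and 5.96 (4.52-fold), and Rsad2, the antiviral enzyme viperin, at -2.77 and -0.96 (3.52-fold). The chemokine Cxcl10 differed by 2.01 (0.91 with normexp), and Oas1a by 1.64 with its other probe at 1.55.

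The response was not uniform within the list. Isg15 differed by -0.06, Ifit1 by 0.11, Ifit3 by 0.17, Irf7 by 0.28 and Irf9 by -0.25, while Stat2 differed by 0.21. Of the guanylate-binding proteins Gbp9 differed by 1.72 (0.24 with normexp) and Gbp5 by 1.32, Gbp2 by 0.27 and Gbp3 by -0.21. Of the 9 genes past 2-fold, 4 stayed so in every setting. Oas2 and Rsad2 were not well above background on day 2.

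Interferon genes past 2-fold and under it were searched for the core of the interferon-stimulated response element, the site of the transcription factors that interferon activates. This core is GAAA, any 2 bases and GAAA again. On either strand and with overlapping matches counted, it was found in the 250 bases before the start in 17 of 32 measured members with a RefSeq promoter (53.1%) against 936 of 27025 genes (3.46%). The core stood in 4 of 6 members past 2-fold and in 13 of 26 members under 2-fold. Among all measured genes with a promoter it was in 3.17%, and in 24 of 319 (7.52%) of those higher past 2-fold on day 20. Shown in capitals, read 5′ to 3′ on the strand of the gene in build GRCm38.p6, are the cores of 3 higher genes, followed by Ifit3 and Isg15, which were near 0.
Cxcl10, chr5:92349040-92349139, minus strand: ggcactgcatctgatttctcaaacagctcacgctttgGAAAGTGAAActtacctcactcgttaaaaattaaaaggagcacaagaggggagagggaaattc
Rsad2, chr12:26456518-26456617, minus strand: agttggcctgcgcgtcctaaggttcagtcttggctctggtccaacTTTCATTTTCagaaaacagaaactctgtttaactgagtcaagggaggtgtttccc
Oas1a, chr5:120907526-120907625, minus strand: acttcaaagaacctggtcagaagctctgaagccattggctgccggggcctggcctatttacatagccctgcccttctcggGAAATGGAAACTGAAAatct
Ifit3, chr19:34583362-34583461, plus strand: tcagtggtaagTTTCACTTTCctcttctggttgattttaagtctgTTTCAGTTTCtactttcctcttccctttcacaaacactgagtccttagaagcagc
Isg15, chr4:156200830-156200929, minus strand: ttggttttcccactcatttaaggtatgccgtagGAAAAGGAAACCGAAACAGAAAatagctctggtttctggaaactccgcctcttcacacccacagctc
Isg15 holds 3 overlapping cores and Oas1a and Ifit3 hold 2 each. These 5 genes were chosen after their values were seen, so they cannot show whether the count of cores follows the difference. The capitals that begin with TTTC are cores on the opposite strand.

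Genes that present antigen on MHC class I were split. Of 23 measured members 5 were higher past 2-fold and 0 lower, with a median of 0.01. The immunoproteasome subunits Psmb8 and Psmb9 were at -0.37 and 0.65 on day 8 and at 1.76 and 2.73 on day 20 (4.37-fold and 4.23-fold higher), while Psmb10, the third subunit, differed by -0.34. The class I heavy chains H2-D1, H2-T23 and H2-Q7 differed by 1.12, 1.08 and 1.07 and H2-K1 by 0.66, but probes of these closely similar genes may share signal. The light chain B2m differed by -0.26, the peptide transporter subunits Tap1 and Tap2 by 0.97 and 0.68, and the class II genes H2-Aa, H2-Ab1 and H2-Eb1 were well above background on neither day. All 5 genes past 2-fold remained so in every setting.

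Chemokines, cytokines and acute-phase genes had 11 of 35 measured members higher past 2-fold and 3 lower, with 20 listed genes well above background on neither day. Ccl17, a chemokine for T cells, was at -1.55 on day 2, -5.02 on day 8 and -1.65 on day 20 (10.4-fold above day 8, SD of the difference 0.27), so its day 20 level was near that of day 2. With normexp its difference of 3.37 was 1.67. Ptx3, a pentraxin of innate immunity, was at -2.02 and -0.01 (4.04-fold). Cxcl5 differed by 1.58, Ccl8 by 1.51, and Il6 by 1.198 at dim levels. Ccl2, the monocyte chemokine of enlarged fat, differed by 1.00. With normexp Ccl8 (0.77), Il6 (0.30) and Ccl2 (0.953) were under 2-fold. Hp, haptoglobin, and Nos2, the inducible nitric oxide synthase, were lower by 1.38 and 1.37, the latter at -0.72 with normexp, and Tnf, Il1a and Il1b were well above background on neither day.

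Macrophage and endothelial markers were read beside these counts, and their part in them was not tested. Adgre1, C1qa, Lyz2, Mrc1 and Ptprc, 5 of 9 on the array, were well above background on neither day, and the summed level of the list was 11.5 on day 8 and 6.28 on day 20. Of the 4 measured, Itgam differed by -1.13, Csf1r by -0.53, Cd14 by 0.32 and Aif1 by 0.73 (-0.06 with normexp). The brightest, Itgam, at 3.30 and 2.17, carries most of that sum. No other of the 3 Itgam probes was well above background on both days. Endothelial markers summed to 7.22 and 4.69. Of 6 on the array 3 were measured, with a median of -0.63 that came to 0.03 on the spike-in scale. Egfl7, 1 of the 3, was at 1.56 on day 8 and 0.92 on day 20. Vwf passed background only on day 20, and Cdh5 and Tek were well above background on neither day.

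Genes of fatty acid synthesis, triglyceride assembly and fatty acid uptake differed little beside the matrix genes. Over all measured genes 3.58% were higher past 2-fold. Fatty acid synthesis had 0 of 22 measured members past 2-fold, with a median of 0.21 and values from Acaca, acetyl-CoA carboxylase, at 0.65 to the acyl-CoA synthetase Acsl1 at -0.34. The list also counts Pmvk, a kinase of the mevalonate pathway, at -0.40. Triglyceride assembly had 1 of 24, Pck1, encoding the enzyme that supplies glycerol 3-phosphate in fasting fat, at 2.58 on day 8 and 4.27 on day 20 (3.24-fold higher). The acyltransferases that end the pathway, Dgat1 and Dgat2, differed by -0.58 and -0.23, values that turn above 0 on the spike-in scale. Fatty acid uptake had 0 of 20 past 2-fold, with Fabp5 at -0.79 and Vldlr, the lipoprotein receptor, at 0.89.

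Lipid droplet proteins had 0 of 26 measured members higher past 2-fold and 1 lower, with a median of -0.02. The perilipins Plin1, Plin2, Plin3 and Plin4 differed by 0.09, -0.30, -0.28 and 0.07. Of the droplet-fusing CIDE proteins, Cidea was at 2.09 and 3.04 (1.94-fold higher), Cideb differed by 0.51 and Cidec by -0.62, the last turning to 0.04 on the spike-in scale and having another probe at -0.24. Tmem120a, encoding a membrane protein of adipocytes, was lower by 1.23.

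Genes that control lipolysis had 2 of 26 measured members higher past 2-fold and 1 lower. Adora1, the adenosine receptor that restrains lipolysis, was at -3.41 and -1.46 (3.85-fold higher, a log2 difference of 1.94 that was 1.27 with normexp). Pde3b, the phosphodiesterase through which insulin does the same, was at -2.94, 1.00 and 2.10 over the 3 days (2.14-fold above day 8). Hcar2, the niacin receptor, was lower by 1.31, and its other probe by 1.16. The lipases Pnpla2, Lipe and Mgll differed by -0.31, 0.09 and 0.49, and the receptor Adrb3 by -0.44.

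The adipogenic transcription factors had 0 of 31 measured members past 2-fold in either direction and a median of 0.03. They ranged from Gata3 at 0.91 and Klf4 at 0.89 to Esrra at -0.60 and Nr1h3, the liver X receptor alpha, at -0.78. Pparg was at 4.46, 6.17 and 6.02 on days 2, 8 and 20, and Cebpa differed by 0.12. On the spike-in scale 6 of the 31 were higher past 2-fold.

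Insulin signalling and glucose uptake had 1 of 39 measured members past 2-fold, Grb14, an adaptor that inhibits the insulin receptor, at -1.88 and -0.76 (2.17-fold higher, and under 2-fold at 0.93 with normexp). Slc2a4, the insulin-responsive glucose transporter, differed by 0.01 (SD 0.02), Insr by -0.11, Irs1 by 0.34 and Irs2 by 0.11. The list median was 0.21, against -0.05 for all genes.

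Secreted products of fat cells had 7 of 29 measured members higher past 2-fold and 1 lower. Pla2g7, platelet-activating factor acetylhydrolase, was at -3.55 and -0.83 (6.59-fold higher), Slit2 differed by 2.00, and Nrg4, a neuregulin of fat, by 1.49 with another probe at 1.02. With normexp Pla2g7 and Slit2 differed by 1.70 and 1.02. Lep, leptin, was dim on both days, at -5.48 and -4.42, and its difference of 1.07 fell to -0.04 with normexp background correction. Retn, resistin, was bright, at 7.28, 8.01 and 6.69 (2.51-fold lower on day 20 than on day 8). Adipoq, adiponectin, was at 8.90 and 8.18, a difference of -0.72. On the spike-in scale it came to -0.05, within its technical SD of 0.075 of 0.

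**Figure D4:**
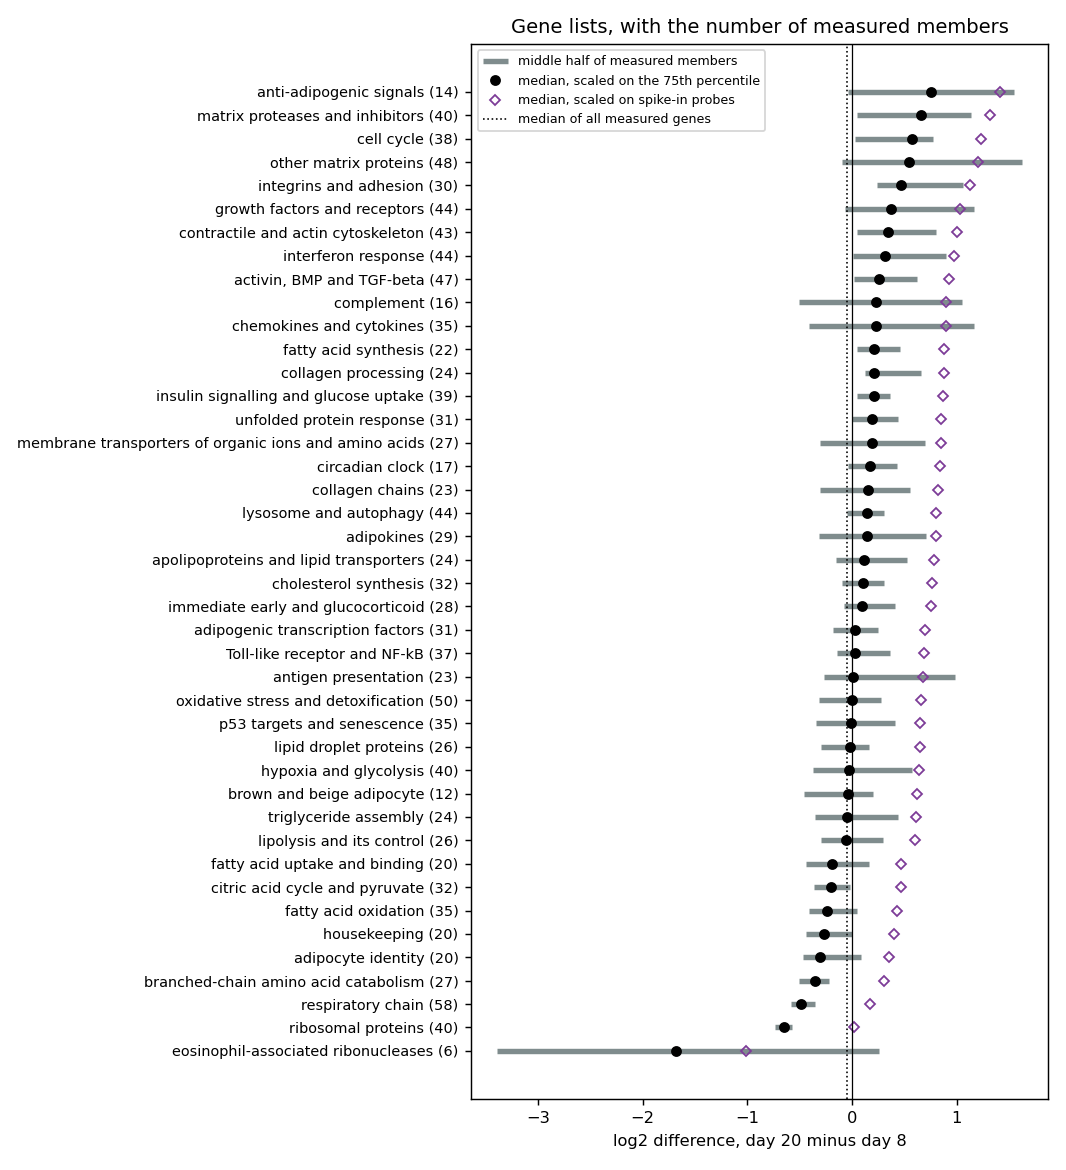
Median log2 difference, day 20 minus day 8, of gene lists with the number of measured members in brackets. Grey bars span the middle of the members from the lower to the upper quartile, black points are medians scaled on the 75th percentile and open diamonds the same scaled on spike-in probes, and the dotted line is the median of all genes. Signals against adipogenesis (0.75) and matrix proteases (0.66) stand at the top, and ribosomal proteins (-0.65) and the eosinophil-associated ribonucleases (-1.68) at the bottom.

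Mitochondrial and ribosomal genes lay below all other large lists, and their direction rests on the scale. None of the 58 measured respiratory chain genes passed 2-fold, and 0 of 58 lay above 0, from Sdha at -0.03 to Cox7b at -0.77, with a median of -0.49. On the spike-in scale the median was 0.17, and with cyclic loess -0.12. All 40 ribosomal protein genes likewise lay below 0, with a median of -0.65 that came to 0.01 on the spike-in scale and -0.19 with cyclic loess. These genes are among the brightest on the array, and the brightest of the 4 signal bins had a median of -0.17.

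Other mitochondrial lists lay between these and the median of all genes. Fatty acid oxidation (35 measured) had a median of -0.24, the citric acid cycle and pyruvate entry (32) of -0.20, and branched-chain amino acid breakdown (27) of -0.36, with only Bcat1 past 2-fold in these 3 lists. Bcat1, the cytosolic branched-chain aminotransferase, was at -4.63 and -2.67 (3.90-fold higher, its other probe at 0.97, and under 2-fold at 0.74 with normexp), while the mitochondrial Bcat2 differed by -0.79. On the spike-in scale the 3 medians were 0.43, 0.47 and 0.31, so they turn in direction. A set of 20 housekeeping genes had a median of -0.27, which became 0.40 on that scale.

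Cell cycle genes had 5 of 38 measured members higher past 2-fold and 0 lower, with a median of 0.57. Ccnd1, cyclin D1, was at 0.23, -0.24 and 1.69 on days 2, 8 and 20 (3.83-fold above day 8). Ccna2, cyclin A2, was at 2.99, -1.82 and -0.53 (2.45-fold above day 8), and Mki67, the proliferation marker Ki-67, at 2.71, -1.58 and -0.54 (2.07-fold). Ccna2 and Mki67 thus stayed below their day 2 levels on day 20. With normexp Ccna2 (0.94) and Mki67 (0.88) were under 2-fold. Of the 5 genes, 1 (Ccnd1) stayed past 2-fold in every setting.

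In stress lists the share of measured members higher past 2-fold ran from 3.2% (unfolded protein response) to 10% (hypoxia and glycolysis). Over all measured genes it was 3.58%. Hmox1, haem oxygenase, was at 2.25, 4.71 and 6.22 (2.83-fold above day 8, its other probe at 1.58), and Sod3, the extracellular superoxide dismutase, at 2.31 and 3.73 (2.67-fold), while Nqo1, another target of the antioxidant factor Nfe2l2, differed by 0.01. Of 31 unfolded protein response genes 1 passed, Atf3 at 1.14 (0.86 with normexp). The endoplasmic reticulum chaperone Hspa5 differed by -0.04 and Ddit3 (CHOP) by 0.60. Of 40 hypoxia and glycolysis genes 4 were higher past 2-fold, the cross-linker Lox, Pfkp, Eno2 and adrenomedullin (Adm, 0.89 with normexp), while Vegfa differed by -0.12 and Ldha by -0.49.

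The lower genes were fewer and more mixed. Gchfr, the feedback regulator of the enzyme that starts tetrahydrobiopterin synthesis, was bright, at 5.94, 6.23 and 4.12 on days 2, 8 and 20 (4.30-fold lower than on day 8). Ly6h, a lipid-anchored surface protein, was at 2.94 and 0.95 (3.98-fold lower, its other probe at -2.12), and Apoc4, an apolipoprotein, at 1.94 and 0.22 (3.29-fold). Msln, mesothelin, was at 0.90 and -1.57 (5.54-fold), while of the other mesothelial markers Lrrn4 differed by 0.88, Wt1 passed background only on day 20, at least 2.90-fold higher, and Upk3b on neither day. These 4, with Camp, Klra5, Pdzk1 and Prcd, are the 8 genes that stayed lower past 2-fold in every setting.

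Scaling on spike-in probes left 21 genes lower past 2-fold, those 8 among them. Camp, the antimicrobial cathelicidin, was at -0.95 and -3.01, and Pdzk1, a scaffold of membrane transporters, at 0.11 and -2.21. The Ly49 receptor genes Klra5, Klra6 and Klra7, usually expressed by natural killer cells, differed by -2.36, -2.30 and -2.07, and since they are close in sequence, which of them was transcribed is uncertain. Treml1, a receptor of platelets, was at -0.83 and -4.56 (13.3-fold lower), and Agrp, a melanocortin antagonist, at -2.63 and -4.84. With normexp Treml1 differed by -2.51, Agrp by -1.23, Klra6 by -1.42 and Klra7 by -1.004.

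The Ear genes, eosinophil-associated ribonucleases, were at lower levels than on day 8. Rnase2a was at 6.58, -1.52 and -5.51 on days 2, 8 and 20 (15.9-fold lower than on day 8), and Ear1 at 5.92, -2.02 and -5.82 (13.95-fold). Ear10 and Ear6 differed by -2.14 and -1.22, and Ear2 did not pass background on day 20 and was at least 47.7-fold lower. With normexp Rnase2a differed by -2.16, Ear1 by -1.89, Ear10 by -1.07 and Ear6 by -0.59, the last under 2-fold. Rnase4 and Ang, of the same superfamily, differed by 1.56 and 0.75, with Ang at -0.07 with normexp. The levels of the whole list, Rnase4 included, summed to 3.16 on day 8 and 4.79 on day 20. The near-identical Ear sequences may share a probe's signal. Of 5 eosinophil markers only Il5ra was well above background on the last days, at -5.30 and -5.36, and Siglecf, Epx, Prg2 and Ccr3 were not.

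Genes above background on only 1 of the days give bounds. Of 769 such genes the bounds passed 2-fold upward in 63 and downward in 66, similar counts in both directions. Edil3, an integrin-binding matrix protein, was at least 6.86-fold higher, the nucleotide receptor P2ry6 at least 6.84-fold and vitronectin (Vtn) at least 5.54-fold. In the other direction Mettl23, a methyltransferase, was at 1.00 and 1.75 on days 2 and 8 and was at least 202-fold lower, the only gene other than Ear2 with a bound past 10-fold among those named.

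**Figure D5:**
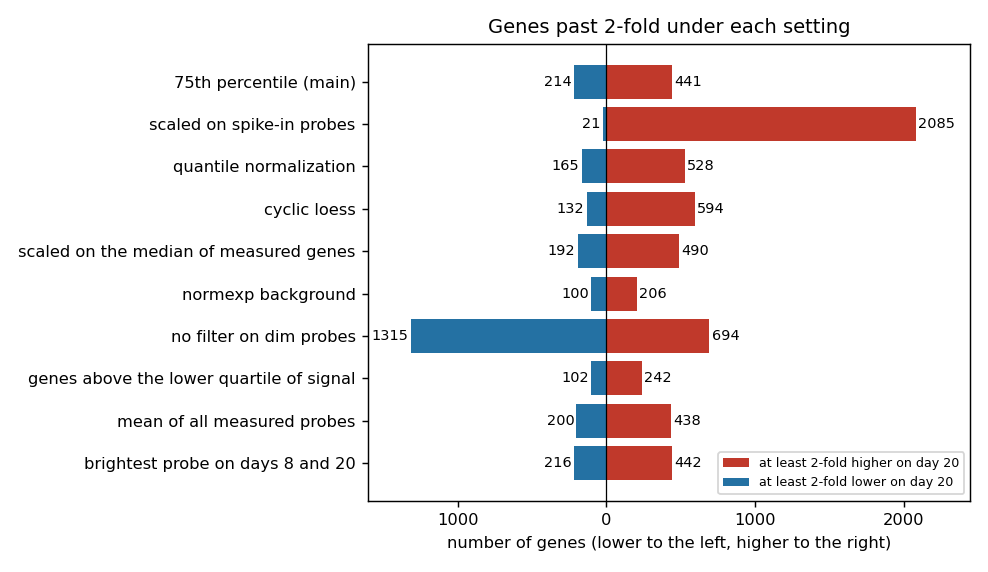
Number of genes past 2-fold higher (red, right) and past 2-fold lower (blue, left), day 20 against day 8, under each setting, with the counts printed. The counts run from 206 to 2085 higher and from 21 to 1315 lower, and higher genes outnumber lower ones in every setting but the one that keeps dim probes.

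Brown and beige markers and bone and cartilage markers were read beside the adipocyte list. Of 10 brown and beige markers Ucp1, Dio2, Prdm16, Elovl3 and Tmem26 were well above background on neither day, and 0 of the 5 measured passed 2-fold. Of the bone and cartilage markers Runx2, Sp7, Ibsp, Col2a1 and Acan were well above background on neither day. Spp1, the cartilage factor Sox9 (1.47) and alkaline phosphatase (Alpl, 1.12, and 0.50 with normexp) were higher past 2-fold and Comp differed by -0.16. Of 6 skeletal muscle markers Myod1, Myog, Ckm and Myh3 were not well above background. Acta1 and Tnnt3 were measured and differed by 0.58 and -0.57, with Acta1 at -1.90 on day 8 and -1.32 on day 20. Mb, myoglobin, which is not in that set, was at 1.88 and 3.62 (3.35-fold higher).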

How the data were processed

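Total RNA of 3T3-L1 cells on days 2, 8 and 20 was measured on 3 Agilent 1-colour arrays, 1 per day, which is 1 sample per group. The deposited intensity values, linear spot brightness, came per the submitters' processing notes from Agilent Feature Extraction 10.7.1.1. They carry that software's background correction and no scaling between arrays, per the file headers. In the series table the deposited log2 values differ from log2 intensity by 1 constant per array and served as an alternative. Other deposited columns mark spots as well above background, saturated or outlying, per the file headers.

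Control and outlier spots were left out, no spot was saturated, and spots of a probe were averaged. Of 39429 probes, 26581 were named by RefSeq accession without its version with the RefSeq gene list of GRCm38.p6, leaving 12848 without a name. The array design names build mm9, so no probe coordinates are given. Each gene took its brightest probe over the 3 arrays. Where 1 array fell short of background, a bound was taken: the level on the bright array less the floor of the dim array, which is its weakest signal well above background or the dim value itself if larger. The technical SD comes from 399 probes printed 10 times per array, as a function of signal, and the number of arrays limits the precision. Sums of marker levels are of intensity divided by the array's 75th percentile.

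Genes were compared by size of difference (2-fold), with no test, and the counting was checked on simulated data. The simulated differences were placed only in genes above a signal cutoff, and background marks were copied from the day 8 array. That check therefore does not cover the dimmest signals or the background filter. Alternatives were scaling on spike-in probes or on the median gene, quantile normalization and cyclic loess (limma 3.58.1), normexp background with offset 50, no filter on dim probes, a filter at the lower quartile of signal, other choices of probe and the series table. The normexp setting used median spot signals. The members and gene lists were chosen with earlier results of these data known, and counts over lists are descriptions. Genes were named by rule: the 15 largest differences in each direction over all genes, the 12 largest among bright genes, the 5 largest bounds, up to 6 members of a list past 2-fold in each direction and 2 under it, the adipocyte anchors, genes lower on the spike-in scale, and families printed whole. Members with small differences that were named for their role were chosen after their values were seen. The day 8 array enters both the comparison with day 2 and that with day 20, so the 2 share its error. A few listed genes are not reported here.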

Additional observations from a re-analysis of the deposited data

How the results depend on the processing

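The 441 genes at least 2-fold higher on day 20 became 2085 with scaling on spike-in probes, 206 with normexp background, 694 with no filter on dim probes and 242 above the lower quartile of signal. The 214 lower genes became 21 on spike-in probes, 132 with cyclic loess, 100 with normexp, 1315 with no filter and 102 above the lower quartile. The share of higher genes, 67.3%, became 99.0% on spike-in probes, 76.2% with quantile normalization, 81.8% with cyclic loess, 71.8% with scaling on the median gene and 34.5% with no filter. Spike-in scaling adds the same constant to each gene, and the filters test other genes, by construction, while for the other settings the cause was not tested. All 441 higher genes remained past 2-fold under quantile and loess scaling. Spike-in and median-gene scaling raise every difference, so by construction they could drop no higher gene. With normexp 201 of them and 100 of the 214 lower genes remained. Lep was reversed by normexp, to -0.041 from 1.07. Of 261 named genes measured on both days, 18 changed sign on spike-in probes. No paired analysis was possible because each day has 1 array and so no shared replicate numbers. No array could be left out, for the same reason. Signal limits the dim genes: the median technical SD was 0.18 in the dimmest of 4 signal bins and 0.074 in the brightest.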

Other observations

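The largest differences also held genes of other functions. Hoxb13, a homeobox gene of posterior tissues, was at -5.20 on day 8 and -1.88 on day 20 (9.97-fold higher, a difference of 3.32 with SD 0.28 that was 1.29 with normexp), with no signal well above background on day 2. The xenobiotic-metabolising enzymes Fmo2, a flavin monooxygenase, and Cyp4b1, a cytochrome P450, were at -3.54 and -3.66 on day 8 and at -0.22 and -0.59 on day 20 (9.95-fold and 8.43-fold). Slco2b1, an organic anion transporter, was at -4.44 and -0.74 (12.9-fold higher), whereas Slc22a20, another organic anion transporter, was 6.07-fold lower, at -1.64 and -4.25. With normexp Fmo2, Cyp4b1, Slco2b1 and Slc22a20 differed by 2.29, 2.18, 2.13 and -1.75.

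Lipid carriers differed widely among themselves. Apod, apolipoprotein D, was at 1.34 and 3.69 (5.07-fold higher), and Apol9a and Apol9b, interferon-inducible apolipoproteins too alike to be told apart with certainty, were 5.64-fold and 5.69-fold higher. Apoc1 and Apoe differed by -0.58 and -0.88, with Apoc1 turning to 0.08 on the spike-in scale. Circadian clock genes had 0 of 17 measured members past 2-fold, with Bhlhe41 at 0.94 (0.01 with normexp). Lysosome and autophagy genes had 0 of 44, with Ctsz at 0.93. Tlr2, a receptor for bacterial lipoproteins, was the only Toll-like receptor or NF-kB gene at least 2-fold higher (3.32-fold), and Nfkbiz differed by -1.36 (-0.93 with normexp).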
